A study of Mus musculus with 3 samples.

Results

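Cycling cells of the columnar colonic epithelium were examined in 3 single-cell RNA libraries from the inflamed mouse colon. Of the 27658 barcodes in the deposited matrices, 19109 held at least 500 unique molecular identifiers (UMIs, each the count of 1 captured transcript), at least 200 genes and at most 10% mitochondrial counts. Of these, 1198 were selected on 4 further criteria. They had at least 2 UMIs over Epcam, Krt8 and Krt19, at least 3 over the 7 cycle genes Mki67, Top2a, Birc5, Cdk1, Ube2c, Nusap1 and Cenpf with at least 2 of these from Mki67, Top2a and Birc5, no UMI of Ptprc, and at most 1 UMI over Krt5 and Krt14. The RatIgG library gave 450 of them, the DATK32 library 428 and the MECA367 library 320. In the same kept barcodes, 5965 met the epithelial criteria whatever their cycle genes and are called columnar here. Of those, 3358 held no UMI of any of the 7 cycle genes and are called non-cycling.

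All mice were C57/BL6J with acute colitis: they drank 1.5% dextran sodium sulfate, a polymer that injures the colonic epithelium, for 7 days and plain water for the 3 days after. Each group received 250 µg of 1 antibody by intraperitoneal injection 3 times a week: RatIgG is the isotype control, and the labels call MECA367 the surrogate of vedolizumab and DATK32 that of ontamalimab. The clones are generally known the other way round, and the pairing in the labels was not checked. The groups are therefore named here by antibody clone only. Lamina propria cells of the large intestine were sorted as viable and CD45-positive before capture with a 3′ droplet kit, and all libraries shared 1 sequencing lane. Each group is 1 library and the number of mice behind it is not stated, so differences between antibodies carry no test and every interval below covers counting error only. CD45 is the product of Ptprc, so barcodes without Ptprc and with keratins are cells that the stated gate should not hold.

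The colonic epithelium is renewed from stem cells at the base of its crypts. Their daughters divide several times in the lower crypt and then mature into absorptive colonocytes, mucus-filled goblet cells or hormone-producing enteroendocrine cells. DNA is copied in S phase, with replication genes rising at the G1/S transition, and chromosomes are separated in mitosis, with spindle, kinetochore and cytokinesis genes rising in G2 and M. Injury by dextran sodium sulfate destroys crypts, and regrowth of the epithelium follows its withdrawal.

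The 7 cycle genes belong mostly to the G2 and mitotic programme. Genes of that programme are known to share promoter elements, among them the CCAAT box bound by NF-Y and the cell cycle homology region TTTGAA bound by the DREAM and MuvB complexes. The promoters of 3 of the cycle genes with the highest levels here are shown because they carry both elements. Each window runs from 250 bases before to 50 bases after the RefSeq start (GRCm38.p6), 5′ to 3′ on the gene's strand, with CCAAT or its complement ATTGG and TTTGAA or its complement TTCAAA in capitals. Mki67 lies at chr7:135716330-135716629 on the minus strand, Top2a at chr11:99024140-99024439 on the minus strand and Ube2c at chr2:164769679-164769978 on the plus strand.
Mki67: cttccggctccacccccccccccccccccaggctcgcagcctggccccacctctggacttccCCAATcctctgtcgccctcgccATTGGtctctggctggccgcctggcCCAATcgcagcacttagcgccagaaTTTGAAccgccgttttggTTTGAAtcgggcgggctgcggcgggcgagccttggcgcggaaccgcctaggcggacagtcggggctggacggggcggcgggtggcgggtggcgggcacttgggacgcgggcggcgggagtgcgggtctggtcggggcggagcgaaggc
Top2a: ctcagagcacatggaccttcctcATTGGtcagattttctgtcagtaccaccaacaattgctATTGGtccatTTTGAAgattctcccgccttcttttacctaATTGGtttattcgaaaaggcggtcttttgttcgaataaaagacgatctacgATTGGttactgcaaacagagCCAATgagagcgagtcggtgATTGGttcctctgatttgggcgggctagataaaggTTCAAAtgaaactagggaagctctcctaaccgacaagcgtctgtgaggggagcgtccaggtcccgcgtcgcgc
Ube2c: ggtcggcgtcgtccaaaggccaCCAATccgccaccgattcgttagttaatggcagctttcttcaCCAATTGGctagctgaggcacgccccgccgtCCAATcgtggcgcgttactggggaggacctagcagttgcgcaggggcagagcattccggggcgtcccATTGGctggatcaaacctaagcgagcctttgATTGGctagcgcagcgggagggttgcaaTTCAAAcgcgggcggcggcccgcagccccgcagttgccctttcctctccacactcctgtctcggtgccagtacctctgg

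Mki67 held 3 CCAAT matches and 2 TTTGAA matches, Top2a 6 and 2, and Ube2c 6 and 1, counting both strands. In Ube2c, 1 CCAAT and 1 ATTGG overlap in the run CCAATTGG. Of the 7 cycle genes, 5 (71.4%) held CCAAT and the same number held TTTGAA, and the windows of Birc5 and Nusap1 held neither string. Among 34 matched genes of a further list of 40 G2 and mitosis genes, 26 (76.5%) held CCAAT and 26 (76.5%) held TTTGAA. Among 26 matched genes of a list of 32 G1/S and replication genes, 14 (53.8%) held CCAAT and 3 (11.5%) held TTTGAA. TTTGGCGC or TTTCCCGC, both strands, 2 forms of the site bound by E2F factors, was found in 10 (38.5%) of those 26 genes and in none of the G2 and mitosis genes. Over all 27025 genes with a window the shares were 41.1% for CCAAT, 20.2% for TTTGAA and 1.80% for the E2F forms. These are matches of letters in 1 window and were not measured as binding.

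The cycle genes chose the cells, so their levels describe the choice. Levels are given as CPM, the UMIs of a gene per 1000000 UMIs summed over the cells of a library. Mki67, the Ki-67 protein that coats mitotic chromosomes, stood at 477 CPM in RatIgG, 546 in DATK32 and 515 in MECA367. Top2a, the topoisomerase that untangles replicated DNA, stood at 496, 498 and 385 CPM in the same order. The other cycle genes lay between 49.96 CPM (Nusap1, a spindle protein, in MECA367) and 293 CPM (Ube2c, the ubiquitin-conjugating enzyme of the anaphase-promoting complex, in DATK32). A UMI of Mki67 was present in 89.8% of the 1198 cells, of Top2a in 76.7%, of Ube2c in 60.5%, of Birc5 (survivin, of the chromosomal passenger complex) in 599 cells, of Cenpf (a kinetochore protein) in 48.9%, of Cdk1 (the mitotic kinase) in 42.3% and of Nusap1 in 29.7%. All 7 genes were seen together in 149 cells (12.4%), and 43 cells held only 1 of them.

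The cut passed through a continuous range. The median cell held 7 UMIs of the 7 genes and the highest 100. Just inside it were 201 cells with exactly 3 (16.8%), and 418 cells held 10 or more. Just outside were 420 columnar barcodes with 2 such UMIs, 839 with 1, and 150 that had 3 or more but too few of Mki67, Top2a and Birc5. Members are therefore the upper range of a per-cell sum and not a closed class. On the epithelial side, 59 members held the minimum of 2 UMIs over Epcam, Krt8 and Krt19 and the median was 20.

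The label of cycling epithelium was set beside markers that the criteria did not use. Hist1h1b, a linker histone made in S phase, stood at 289, 318 and 274 CPM in the RatIgG, DATK32 and MECA367 members and at 17.7, 27.1 and 27.6 CPM in the non-cycling cells of the same libraries. Hist1h1b is a cycle gene, so this contrast follows from the choice of cells. It had a UMI in 54.9%, 56.3% and 52.2% of members, against 0.386% or less of stromal barcodes, which were shallower (median 990 to 1821 UMIs against 2838 to 5265). Cdx1, an intestinal transcription factor, stood at 273, 277 and 260 CPM. A list of 11 columnar markers, 3 of which the criteria use, summed to 12080, 11609 and 11506 CPM. The list of 8 T and NK markers summed to 4.15 to 19.6 CPM and that of 3 glial markers to 1.73 CPM or less. Crypt position was not measured: Lgr5, the receptor that marks crypt base stem cells, had a UMI in 64 of the 1198 cells, and Olfm4 in 2.

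RNA of other cells was also present in these barcodes. The 8 B and plasma cell markers, led by the immunoglobulin genes Igkc and Igha, summed to 10308, 4994 and 10594 CPM in RatIgG, DATK32 and MECA367 members. The 9 myeloid markers summed to 76.6, 311 and 1331 CPM, mostly from S100a8 and S100a9, the calprotectin subunits of neutrophils, while Lyz2 stood at 18.4 CPM or less and C1qa at 8.94 or less. At least 2 UMIs over the T and NK, myeloid, stromal, muscle, endothelial or glial lists were found in 54 (12.0%), 36 (8.41%) and 89 (27.8%) members. MECA367 members thus stood apart. Pairs of libraries shared 18 to 20 barcode sequences, and no member barcode was a member in both libraries of a pair.

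The cycling cells fell into a shallow and a deep range of UMIs, as the histogram of depth shows. Their summed depth was 2494470 UMIs in RatIgG, 2894840 in DATK32 and 1901442 in MECA367, with medians of 5016, 5265 and 2838 per cell and a range from 501 to 39531. Under 2000 UMIs lay 120 (26.7%), 143 (33.4%) and 131 (40.9%) members. In these shallow cells the transcripts Gm42418 and Gm26917, which overlap ribosomal RNA, took 8.88%, 13.0% and 15.8% of UMIs, against 1.13%, 2.03% and 1.99% in the deep cells. Ribosomal protein genes took 13.8%, 13.2% and 11.3% against 19.7%, 20.5% and 20.6%. Replication-dependent histones stood at 6195, 9231 and 9231 CPM in the shallow cells and 1744, 2619 and 2044 in the deep ones. Goblet and secretory genes went the other way, at 1447, 1407 and 1368 CPM against 6252, 6252 and 7763. Mki67, one of the genes that chose the cells, stood at 1323, 1772 and 1813 CPM in the shallow cells and 425, 469 and 391 in the deep ones. Pcna, which did not choose them, went the other way, at 165, 200 and 144 CPM in the shallow cells against 230, 238 and 195.

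**Figure D1:**
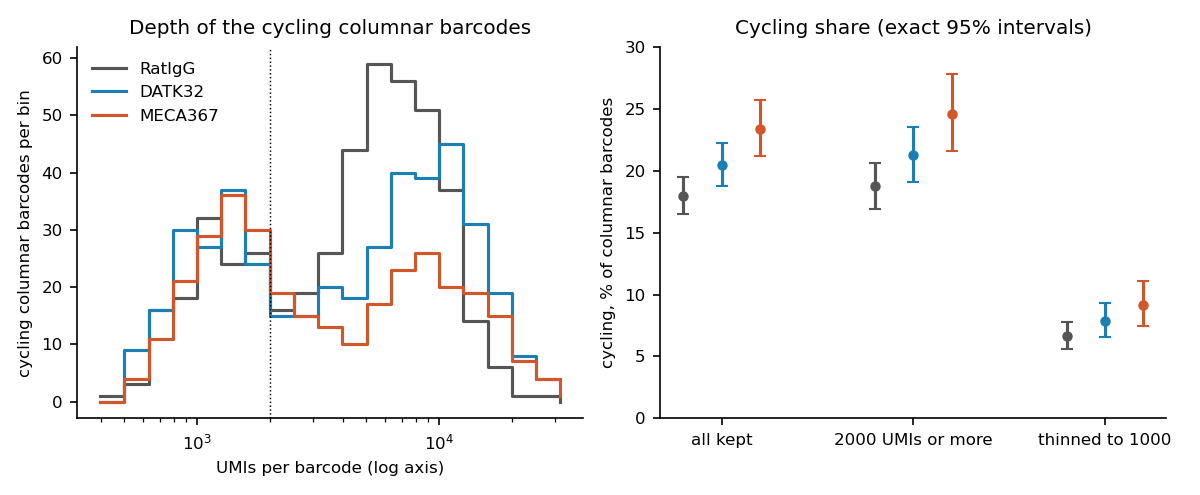
Left: number of cycling columnar barcodes per bin of UMIs (log axis) in each library, with a dotted line at 2000 UMIs; right: cycling barcodes as a percentage of columnar barcodes with exact 95% intervals, for all kept barcodes, for those with at least 2000 UMIs and after thinning to 1000 UMIs. All libraries have a shallow and a deep peak, and the share runs from RatIgG (17.96%) through DATK32 (20.5%) to MECA367 (23.4%) in each of the 3 versions.

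Cycling cells made up 17.96% of columnar barcodes in RatIgG (450 of 2505, exact 95% Clopper-Pearson interval 16.5 to 19.5%), 20.5% in DATK32 (428 of 2092, 18.7 to 22.3%) and 23.4% in MECA367 (320 of 1368, 21.2 to 25.7%). The intervals of RatIgG and MECA367 did not overlap and those of DATK32 overlapped both, but no ratio reached 1.5-fold. After each barcode of at least 1000 UMIs was thinned at random to 1000, the shares were 6.63%, 7.86% and 9.15%. Over all kept barcodes the order was another: 6.11% in RatIgG, 7.31% in DATK32 and 5.43% in MECA367. The columnar barcodes themselves were fewer in MECA367, and the sort was for CD45, so neither denominator measures cycling epithelium in the tissue.

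Cycling cells were compared with non-cycling columnar cells within each library, with counts summed per library and class and the library as a block in edgeR's quasi-likelihood test. The cells were divided by cycle genes, so cycle genes are described here and other genes are tested. Over all 11493 genes tested, 2755 (24.0%) were called higher in cycling cells and 2830 (24.6%) lower at a Benjamini-Hochberg adjusted p under 0.05, with a median log2 fold change of -0.02. Counts for each gene list below are read against those shares. The lists and their members were chosen with earlier results of these data known.

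As the choice implies, cycle genes outside the 7 were high. Of the 40 genes of the G2 and mitosis list, 39 lay above the non-cycling level, at a median log2 fold change of 4.43, and 31 of the 32 G1/S and replication genes did, at a median of 2.18. Ccna2, cyclin A2, stood at 148, 151 and 103 CPM against 1.93, 3.38 and 2.56. Pcna, the sliding clamp of DNA polymerase, stood at 227, 236 and 190 against 91.1, 81.4 and 102. The 53 testable histone genes had a median of 2.56. Esco2, which joins sister chromatids, Pbk, a mitotic kinase, and Tpx2, a spindle assembly factor, had the highest log2 fold changes outside the 7 genes, at 5.89, 5.75 and 5.64.

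Genes of ribosome biogenesis and growth were higher in cycling cells, with 20 of 21 called higher and none lower (median log2 0.98). Npm1, the nucleolar chaperone nucleophosmin, stood at 1256 CPM in RatIgG, 1438 in DATK32 and 1478 in MECA367 cycling cells, against 769, 732 and 817 in non-cycling cells. Every cycling value lay above every non-cycling value, and the log2 fold change was 0.76 (SE 0.07, edgeR adjusted p = 1.8e-06). Ran, the GTPase of nuclear transport and spindle assembly, stood at 527, 579 and 573 CPM against 187, 179 and 196 (log2 1.50, SE 0.08, edgeR adjusted p = 6.7e-09). Ncl, nucleolin, rose by 1.21 and Hspd1, the mitochondrial chaperonin, by 0.99 on the log2 scale. Odc1, the first enzyme of polyamine synthesis, was the member that was not called, at 232, 274 and 232 CPM against 213, 226 and 229. The count of called members was also 20 after thinning, above 2000 UMIs, with DESeq2 and without any 1 library.

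Glycolytic enzymes were mostly higher, with 8 of 12 called higher and 3 lower (median 0.65). Pkm, pyruvate kinase, stood at 318, 321 and 250 CPM against 147, 119 and 130 (log2 1.09, SE 0.10, edgeR adjusted p = 9.2e-07). Pgam1, phosphoglycerate mutase, rose by 1.07. The 3 that fell were Aldoa, Hk2 and the glucose transporter Slc2a1, at -0.23, -0.26 and -0.33. With DESeq2 the 8 higher calls were counted again and the 3 lower ones were not. Nuclear genes of oxidative phosphorylation did not move as a list: 26 of 77 were called higher and 7 lower (median 0.13), whereas after thinning 3 of 74 were higher and 19 lower (median -0.15).

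Products of mature secretory cells fell. All 21 genes of the goblet and secretory list were called lower in cycling cells (median log2 -1.92). Muc2, the gel-forming mucin of colonic mucus, stood at 1670, 1535 and 1683 CPM in cycling cells of RatIgG, DATK32 and MECA367, against 9413, 12534 and 11464 in non-cycling cells. The groups did not overlap and the log2 fold change was -2.85 (SE 0.08, edgeR adjusted p = 3.8e-11). Agr2, a disulfide isomerase of mucin folding, fell by 1.54, and the secretory transcription factors Atoh1 and Spdef fell by 2.03 and 1.92. Klk1, a kallikrein, and Zg16, a bacteria-binding lectin, fell by 2.91 and 2.87. The call was made for 17 of 21 with DESeq2 and for 18 of 19 after thinning. Within the cycling cells Muc2 was unevenly spread: the 10 cells with most Muc2 held 50.05% of its UMIs in RatIgG, 48.2% in DATK32 and 80.5% in MECA367, against 8.96% to 19.8% in the larger non-cycling groups.

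Enteroendocrine genes were also low, with 9 of 10 testable members called lower (median -3.26). Chgb, a granin of hormone granules, stood at 22.0, 1.38 and 74.7 CPM against 478, 405 and 575 (log2 -4.31, SE 0.40, edgeR adjusted p = 1.7e-06). Chga had a UMI in 14 of the 1198 cycling cells and fell by 3.61. Both testable tuft cell genes were called lower, Dclk1 among them at -2.92. The cycling level of Chgb was lowest in DATK32 and highest in MECA367, and no cycling value reached a non-cycling one. That order of libraries rests on few cells. The enteroendocrine list summed to 167, 26 and 305 UMIs in cycling cells of RatIgG, DATK32 and MECA367, and the highest single cell held 78, 8 and 139.

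Absorptive genes split. Of 20 tested, 12 were called lower and 3 higher (median -0.48). Guca2a, guanylin of the upper crypt and surface, stood at 323, 187 and 193 CPM against 989, 1072 and 1037 (log2 -2.26, SE 0.14, edgeR adjusted p = 2.6e-08). Car1, a carbonic anhydrase of colonocytes, fell by 0.61, and Krt20, a keratin of surface cells, by 1.25. Muc3, a membrane mucin, rose by 0.69 and Mt2 by 0.30. Ceacam1 stood at 834, 768 and 850 CPM against 937, 926 and 948, a fall of 0.28 that was called.

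**Figure D2:**
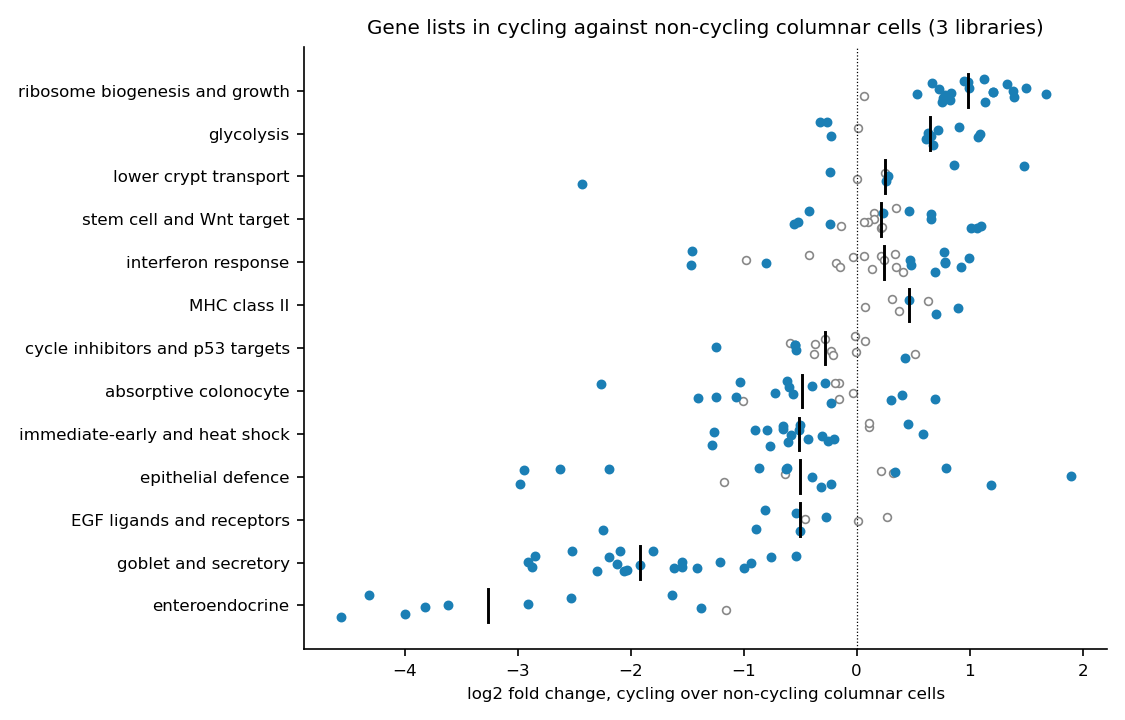
Log2 fold change of each tested gene (horizontal axis) in cycling over non-cycling columnar cells, by gene list; filled points passed an adjusted p of 0.05 in edgeR's test over 3 libraries, open points did not, and bars mark the median of a list. Ribosome biogenesis lies to the right (20 of 21 called higher) and the goblet and secretory list lies to the left (21 of 21 called lower).

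Stem cell and Wnt target genes gave 7 higher and 4 lower of 19 (median 0.21), a share of higher calls above that over all genes and a share of lower calls below it. Ccnd1, cyclin D1, stood at 247, 273 and 283 CPM against 134, 123 and 105 (log2 1.06, SE 0.10). Ccnd2 rose by 0.65, Myc by 0.47 and Ascl2, a crypt base transcription factor, by 1.01. Sox9, a transcription factor of the crypt base, fell by 0.56 and Cdk6 by 0.52. Ccnd1, Ccnd2 and Cdk6 are also cycle genes, so their values may follow from the choice of cells. The counts of this list include them. Lgr5 was not called, at 11.6, 10.7 and 12.1 CPM against 9.65, 10.4 and 17.3 (log2 -0.14, SE 0.22, edgeR adjusted p = 0.62). Calls fell to 3 higher and 2 lower of 15 after thinning.

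Transport genes of the lower crypt gave 4 higher and 2 lower of 8. Aqp4, a water channel, stood at 192, 154 and 153 CPM against 114, 82.6 and 63.8, and Nox1, a superoxide-producing oxidase, at 35.3, 28.7 and 28.4 against 13.3, 10.6 and 6.73. They rose by 0.86 and 1.48 on the log2 scale (SE 0.10 and 0.17). Car8, a carbonic anhydrase-related protein, stood at 43.7, 45.6 and 68.9 CPM against 218, 290 and 287 and fell by 2.43. After thinning the list gave 1 higher and 2 lower.

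Genes of injury response were divided. Of 14 repair and fetal-like genes, 3 were called higher and 7 lower (median -0.25). Ly6a, the Sca-1 surface protein of regenerating epithelium, stood at 295, 322 and 317 CPM against 96.3, 92.1 and 181 (log2 1.33, SE 0.14, edgeR adjusted p = 6.2e-06). The annexins Anxa1 and Anxa8 rose by 0.70 and 2.25, while Clu, clusterin, fell by 2.17 and Plaur, the urokinase receptor, by 1.02. None of 9 epidermal growth factor ligands and receptors was called higher and 6 were called lower (median -0.50), among them the ligands Hbegf at -0.50 and Areg at -0.27 and the receptor Egfr at -0.89.

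Stress and immediate-early genes were mostly lower in cycling cells, at 15 of 19 called lower and 2 higher (median -0.51). Nr4a1, a nuclear receptor induced by stimulation, stood at 342, 319 and 251 CPM against 698, 742 and 642, and Dusp1, a phosphatase of MAP kinases, at 334, 297 and 283 against 685, 681 and 706. The cytosolic chaperones Hsp90aa1 and Hsph1 were the 2 called higher, at 0.59 and 0.46. Of 15 unfolded protein response genes, 6 were lower and 2 higher (median -0.19), led by Ddit3, the factor CHOP, at 87.4, 100 and 117 CPM against 251, 271 and 312. Of 15 cycle inhibitors and p53 targets, 4 were lower and 1 higher (median -0.28). Trp53inp1, a p53 target, fell by 1.25, Cdkn1a, the inhibitor p21, by 0.55, and Bax, a pore-forming death protein, rose by 0.43.

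Of 18 epithelial defence genes, 10 were called lower and 4 higher (median -0.50). Nos2, inducible nitric oxide synthase, stood at 24.1, 43.5 and 43.7 CPM against 6.37, 9.09 and 13.5 (log2 1.89, SE 0.16, edgeR adjusted p = 7.9e-07). Duoxa2, the maturation factor of an epithelial oxidase, rose by 1.19, Reg3g by 0.79 and Dmbt1, a secreted scavenger protein, by 0.34. Saa3 fell by 2.62 and Retnlb, a resistin-like protein of goblet cells, by 2.19. Interferon response genes gave 8 higher and 3 lower of 23 (median 0.24). MHC class II genes gave 3 higher and none lower of 7 (median 0.46), with Cd74, the invariant chain, rising by 0.70 (SE 0.08, edgeR adjusted p = 1.1e-05). Without a library block, 3 interferon genes were higher and 3 lower, and no MHC class II gene was called.

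Stromal and B and plasma cell RNA was higher in the non-cycling cells, and its part in these comparisons was not tested. Stromal markers summed to 181, 98.1 and 92.0 CPM in cycling cells against 635, 818 and 659 in non-cycling cells, and all 8 were called lower. The markers of B and plasma cells summed to 10308, 4994 and 10594 CPM against 14211, 9720 and 35821. Myeloid markers were lower in the cycling cells in RatIgG only, at 76.6, 311 and 1331 CPM against 480, 284 and 1181. With barcodes of other lineages removed from both classes, 20 of 21 growth genes were still called higher and 20 of 20 goblet genes lower, while interferon genes gave 13 higher and 3 lower of 22. Among the genes lowest in cycling cells, Ctrb1, a pancreatic protease, rested on 1 library: its non-cycling level was 1261 CPM in RatIgG and 0.423 and 1.92 in the others. Clps, another pancreatic gene, had 309, 46.3 and 33.3 CPM. Beside Chgb, Chga and Klk1 above, the others with the lowest values were the enteroendocrine gene Tph1 (log2 -3.82), the chemokine Ccl6 (-3.30), the matrix protein gene Mgp (-3.13), Ramp1 (-2.94) and Rgs17 (-2.92).

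Lineage was also read per cell, as the number of UMIs over the goblet list and over the absorptive list without Mt1 and Mt2. At least 3 goblet UMIs were found in 225 of the 450 cycling cells in RatIgG, in 48.6% in DATK32 and 40.3% in MECA367, and in 55.1%, 50.4% and 46.0% of non-cycling cells. At equal depth the classes parted. After thinning to 1000 UMIs, which kept 413, 373 and 284 cycling cells, the shares were 22.3% (exact 95% interval 18.4 to 26.6%), 18.8% (14.9 to 23.1%) and 15.8% (11.8 to 20.6%), against 46.1%, 46.4% and 43.0%. Neither list reached 3 UMIs in 35.6%, 45.3% and 46.1% of thinned cycling cells, against 21.8%, 26.0% and 32.7%. Absorptive UMIs alone reached 3 in 42.1%, 35.9% and 38.03%, against 32.2%, 27.6% and 24.3%. These classes are ranges on a sum. A Muc2 UMI was also present in 3.12% to 6.96% of thinned stromal and leukocyte barcodes, against 15.5% to 23.0% of thinned cycling cells. The source of Muc2 in the stromal and leukocyte barcodes was not tested.

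**Figure D3:**
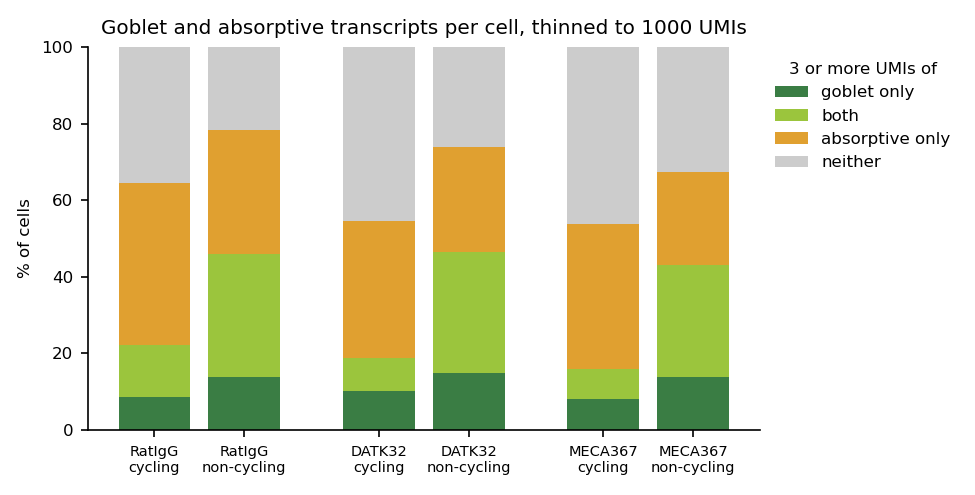
Percentage of cells (vertical axis) with 3 or more UMIs of the goblet list only, of both lists, of the absorptive list only or of neither, in cycling and non-cycling columnar cells of each library thinned to 1000 UMIs. The 2 goblet classes together take 15.8% to 22.3% of the cycling cells and 43.0% to 46.4% of the non-cycling cells.

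Cycling cells leaned to the G2 and mitotic side in every library. More UMIs of the G2 and mitosis list than of the G1/S list were held by 81.6% of cells in RatIgG, 79.4% in DATK32 and 79.4% in MECA367, and more of the G1/S list by 15.8% (71 cells), 16.4% (70) and 15.6% (50). The cycle genes that chose the cells lean the same way, so the balance describes the choice. The G1/S share did not part the libraries, since each exact interval held the other 2 values (12.5 to 19.5%, 13.0 to 20.2% and 11.8 to 20.1%). Cells on the G1/S side had Ube2c at 64.1, 75.6 and 71.7 CPM, against 339, 334 and 328 on the G2 and mitotic side. Histones were present on both sides, at 1450, 2402 and 2188 CPM on the G1/S side and 2099, 3099 and 2749 on the other. Histone transcripts of this class end without a poly(A) tail, and capture here was by poly(A), so their levels are those of what the kit could take.

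A reference with the same cycle criteria was available in the leukocytes. Barcodes with a UMI of Ptprc, none of Epcam, Krt8 or Krt19 and the same cycle minima numbered 43 in RatIgG, 37 in DATK32 and 50 in MECA367. They were a mixture: 28, 33 and 46 of them held at least 2 UMIs of T and NK markers, and 30, 26 and 29 held as many of B and plasma cell markers. In RatIgG they also carried stromal RNA (2705 CPM over the stromal list, against 227 and 85.5). Their median depth was 2976, 4406 and 6597 UMIs. Over 9896 genes tested between the classes, 2236 (22.6%) were called higher in cycling columnar cells and 1581 (16.0%) lower, with a median log2 fold change of 0.21. Epithelial and leukocyte genes are fixed by the choice of cells (Krt8 highest, Ptprc lowest), so only cycle lists are read.

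Replication genes were lower in cycling epithelium than in cycling leukocytes. Of 32 G1/S genes, 14 were called lower and none higher, with a median log2 fold change of -0.60. Pcna stood at 227, 236 and 190 CPM in the epithelium and 368, 409 and 461 in the leukocytes, with no overlap (log2 -1.08, SE 0.20, edgeR adjusted p = 3e-05). Dut, which clears dUTP, stood at 110, 141 and 127 CPM against 218, 295 and 479 (log2 -1.51, SE 0.22, edgeR adjusted p = 3.3e-07). Rrm2, of ribonucleotide reductase, fell by 1.47, Pola1, of the primase complex, by 1.58, and the helicase subunits Mcm3 to Mcm7 by 0.63 to 1.34. Tk1, thymidine kinase, was not called, at 73.0, 61.5 and 50.5 CPM against 20.4, 45.4 and 59.6. The number of lower calls was 7 with DESeq2, 4 of 23 after thinning and 6 without the MECA367 library.

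Mitotic genes did not shift as a list, with 6 of 40 called higher, 5 lower and a median of 0.02. Higher were Plk1, the polo-like kinase, at 72.6, 83.3 and 48.9 CPM against 6.81, 28.4 and 12.9 (log2 1.87, SE 0.41, edgeR adjusted p = 0.00025, on 11 leukocyte counts), and the cytokinesis genes Anln, Ect2, Kif20b and Kif23, with the tubulin Tubb4b. Lower were Hmgb2, a chromatin protein, at 1479, 1555 and 1209 CPM against 2357, 3038 and 2991, and Cks1b, Cenpa, Smc4 and Racgap1. Histones gave 2 higher and 3 lower of 41 (median -0.04). Of 14 inhibitors and p53 targets, 8 were lower and 2 higher, with Btg1, an antiproliferative gene of lymphocytes, at 376, 285 and 230 CPM against 1213, 835 and 844. Cdkn2b, the inhibitor p15, stood at 16.0, 14.5 and 14.2 CPM and had 1 count over the 3 leukocyte sums together. Gadd45a was the other called higher, at 1.22.

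**Figure D4:**
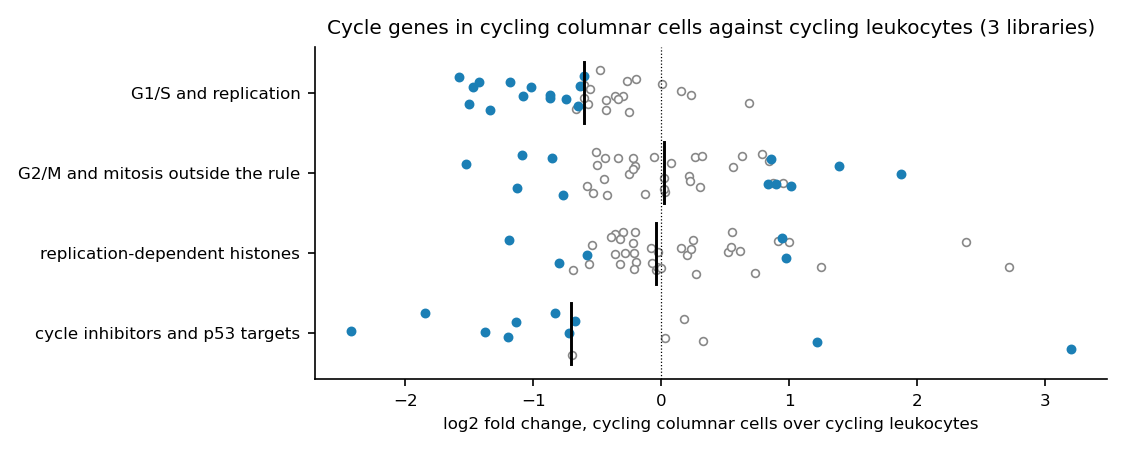
Log2 fold change of each tested gene (horizontal axis) in cycling columnar cells over cycling leukocytes, for 4 cycle lists; filled points passed an adjusted p of 0.05 in edgeR's test over 3 libraries and bars mark medians. The G1/S list lies left of 0 at a median of -0.60, and the G2 and mitosis list is centred at 0.02.

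Between antibodies, a gene was taken as different when the CPM of the cycling cells differed at least 1.5-fold with exact 95% Poisson intervals apart. Of 9360 genes with at least 50 counts, 111 (1.19%) were higher and 132 (1.41%) lower in DATK32 than in RatIgG, and the split was 137 to 107 under TMM scaling. In MECA367 197 (2.10%) were higher and 299 (3.19%) lower than in RatIgG. In DATK32 210 (2.24%) were higher and 191 (2.04%) lower than in MECA367. The first 2 comparisons share the RatIgG library. With 1 library each, these differences compare libraries and have no replicate check.

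The antimicrobial lectins Reg3b and Reg3g were among the 5 genes with the highest ratio of MECA367 to RatIgG. Reg3b, a secreted bactericidal lectin, stood at 1260 CPM in RatIgG, 3157 in DATK32 and 10540 in MECA367 cycling cells. The log2 ratio to RatIgG was 1.33 in DATK32 and 3.06 in MECA367, and over the 11 alternatives it ran from 0.97 to 1.43 and from 2.64 to 3.15. In non-cycling cells of the same libraries it stood at 1673, 2241 and 4899 CPM. After thinning, a Reg3b UMI was present in 19.4%, 29.5% and 53.9% of cycling cells, against 2.58%, 2.17% and 5.51% of stromal barcodes (median depth 990, 1249 and 1821) and 1.64%, 3.20% and 6.40% of leukocytes (1117, 1321 and 1783). The 10 cells with most Reg3b held 51.4%, 46.8% and 47.2% of its UMIs.

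Reg3g, the related lectin, stood at 166, 465 and 1599 CPM (log2 to RatIgG 1.48 and 3.26). Dmbt1 was not past the rule, at 3075, 2612 and 3222 CPM, nor was Pigr, the receptor that carries immunoglobulin A across the epithelium, at 1916, 1530 and 1491. Over the 15 measured defence genes, 6 were higher and 2 lower in MECA367 than in RatIgG (median 0.58) and 4 were higher and 1 lower in DATK32 (median -0.18), against medians of -0.06 and -0.02 over all genes. Nos2 and Duoxa2 were among those higher in both, at 24.1, 43.5 and 43.7 CPM and at 60.9, 109 and 113 CPM. Retnlb stood at 168, 150 and 807 CPM, but with barcodes of other lineages removed its log2 ratio of DATK32 to MECA367 moved from -2.43 to -0.07.

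Some interferon response genes were higher in both antibody libraries than in RatIgG. In MECA367 9 of 21 measured genes were higher than in RatIgG and none lower (median 0.73), and in DATK32 5 were higher and none lower (median 0.07). Irf1, an interferon-induced transcription factor, stood at 222, 496 and 394 CPM, and Iigp1, an immunity-related GTPase, at 44.1, 110 and 174. Cxcl10 and Cxcl9, ligands of the chemokine receptor CXCR3, were highest in DATK32, at 126, 361 and 209 CPM and at 24.5, 89.1 and 41.0 CPM. Psmb8, Psmb9 and Tap1, of class I antigen processing, were among the 9 in MECA367, with Tap1 at 38.5, 46.3 and 81.0 CPM. The difference for Irf1 kept its direction and size class under all 11 alternatives, while that of Iigp1 in DATK32 was lost under 2 and that of Cxcl10 in MECA367 under 2. Of the 11, 2 change only the count minimum and cannot move a ratio.

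MHC class II genes were higher in MECA367 than in the other libraries. In MECA367 5 of 6 measured genes were higher than in RatIgG and none lower (median 0.80), and in DATK32 3 were lower and none higher (median -0.55), a count of 2 with TMM scaling and of 1 of 4 under a mitochondrial limit of 5% or after thinning. Of the 3, H2-Ab1 lay at the edge of the rule in DATK32, at a log2 ratio of -0.59, and was not past it under 8 of the 11 alternatives. Those that kept it include the ones that change only the count minimum. Cd74 stood at 297 CPM in RatIgG, 232 in DATK32 and 561 in MECA367, and H2-Ab1, a class II chain, at 81.4, 53.9 and 137. H2-Eb1 stood at 52.9, 24.5 and 95.7. Between DATK32 and MECA367, 5 of 6 were lower and none higher (median -1.44). Leukocytes, where class II levels are high, had Cd74 at 2900, 1920 and 1696 CPM, in another order than the cycling cells. The part of leukocyte RNA in the class II values of the cycling cells was not tested. With barcodes of other lineages removed, 5 of 6 were still higher in MECA367 than in RatIgG (median 1.24), and under a mitochondrial limit of 5% 1 of 4 was (median 0.66).

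**Figure D5:**
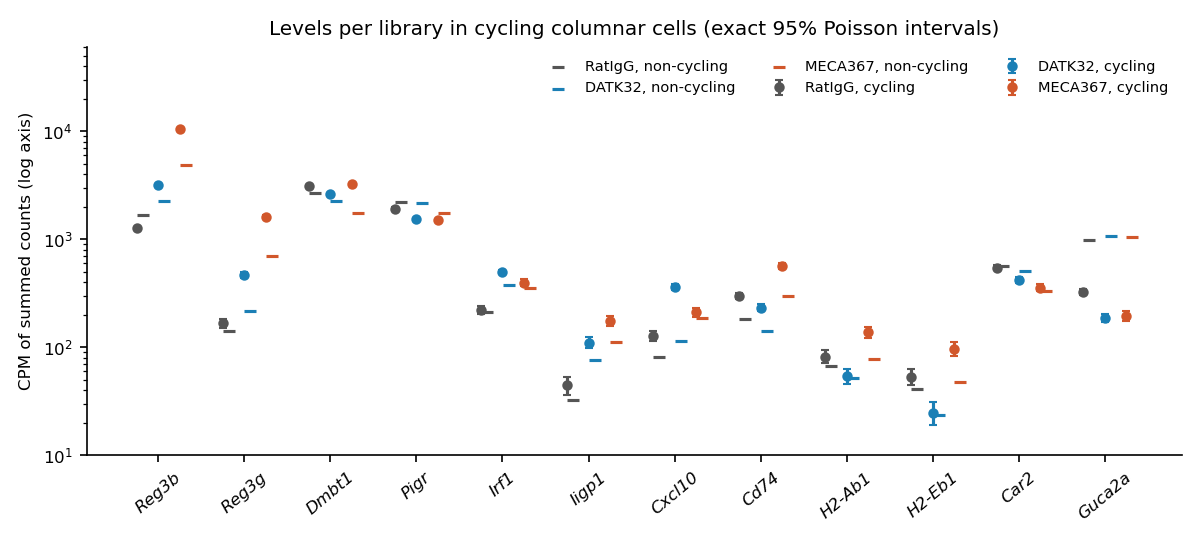
CPM (log axis) of 12 genes in cycling columnar cells of each library (points with exact 95% Poisson intervals) and in non-cycling columnar cells of the same library (dashes). Reg3b and Reg3g step up from RatIgG through DATK32 to MECA367, Cd74 and the class II chains are highest in MECA367 and lowest in DATK32, and Dmbt1 and Pigr differ by less than 1.5-fold.

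Some absorptive genes were lower in each antibody library than in RatIgG, and none was higher. They numbered 7 of 19 in MECA367 (median of the list -0.47) and 4 of 19 in DATK32 (median of the list -0.44). Under a mitochondrial limit of 5%, 2 were lower and 2 higher of 15 in MECA367 and 2 were lower in DATK32. Car2, a carbonic anhydrase, stood at 545, 417 and 354 CPM, and Mt2, a metal-binding protein, at 326, 190 and 143. Against RatIgG, Car2 was past the rule in MECA367 only. It was not past it there under TMM scaling, with at least 2000 UMIs or under the mitochondrial limit of 5%. Cyp2c55, a cytochrome P450, stood at 149, 73.2 and 39.97 CPM, but under a mitochondrial limit of 5% its log2 ratio of MECA367 to RatIgG turned from -1.88 to 3.08. Goblet genes moved apart. Reg4 stood at 19.2, 58.4 and 165 CPM and Spink4 at 670, 1222 and 1241, while Zg16 stood at 344, 122 and 96.2 and Clca1 at 27.3, 12.1 and 3.16. With barcodes of other lineages removed, the log2 ratio of MECA367 to RatIgG fell from 3.08 to 0.45 for Reg4 and turned from 0.89 to -0.44 for Spink4, neither past the rule, and that of DATK32 to MECA367 turned from -1.50 to 1.02 for Reg4. Under the mitochondrial limit of 5%, Reg4 in MECA367 came to -0.02, and Zg16 in DATK32 turned from -1.50 to 3.41. Clca1 in DATK32 turned from -1.15 to 3.76, and Spink4 in MECA367 turned from 0.89 to -0.51. Of the ratios of these goblet genes to RatIgG, only the turned one of Zg16 was past the rule at that limit.

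Cycle lists differed unevenly between libraries. Over all genes, 1.19% were higher in DATK32 than in RatIgG, 3.19% lower in MECA367 than in RatIgG and 2.24% higher in DATK32 than in MECA367. None of the 32 G1/S genes was past the rule between DATK32 and RatIgG and 1 was lower in MECA367. Of 40 G2 and mitosis genes, 5 were lower in MECA367 than in RatIgG (median -0.37) and 10 were higher in DATK32 than in MECA367 (median 0.43), with Plk1 at 72.6, 83.3 and 48.9 CPM. After thinning these counts were 0 and 1 of 31. Of 43 measured histones, 12 were higher in DATK32 than in RatIgG (median 0.32) and 5 higher and 1 lower in MECA367 (median 0.34). Hist1h2ap stood at 233, 647 and 544 CPM, and Hist1h1b was not past the rule. With barcodes of other lineages removed, 9 of 38 were higher in DATK32 and 8 in MECA367. Under the mitochondrial limit of 5% the counts were 2 and 1 of 27 and the medians -0.02 and -0.36. Genes of the histone clusters are near-identical copies whose reads can be split between members, so single histone values are uncertain.

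Other genes were named by size of the ratio. Higher in DATK32 than in RatIgG were S100a9 (42.1, 182 and 685 CPM in RatIgG, DATK32 and MECA367), Cxcl9, Cxcl10, Reg3g and Hist1h2ap, and lower were Jchain, the sulfotransferases Sult1b1 and Sult1a1, the esterase Ces1d and H2-Eb1. Higher in MECA367 than in RatIgG were the neutrophil genes S100a8, Retnlg and S100a9 with Reg3g and Reg3b, and lower were Cyp2c55, the homeobox gene Hoxb13 of the distal colon (53.3, 46.6 and 14.2 CPM), the alcohol dehydrogenase Adh1 (128, 92.6 and 39.4), Thbs4 and Susd6. Higher in DATK32 than in MECA367 were Trf, B3gnt7, Hoxb13, the chemokine Ccl20 (64.1, 80.5 and 27.9) and Usp46, and lower were Retnlb, the tryptophan-degrading enzyme Ido1 (12.8, 13.8 and 71.0), S100a8, Ifitm1 and Jchain.

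Several of these are known markers of other cells. S100a8 stood at 16.0, 116 and 567 CPM in cycling cells, where the 10 highest cells held at least 93.5% of its UMIs in each library, and at 3468, 6679 and 19629 CPM in leukocytes. S100a8 and S100a9 are on the list by which barcodes of other lineages were removed, so that removal takes out their counts by construction. After it, S100a8 and Retnlg were no longer past the rule in MECA367 over RatIgG, at log2 ratios of 2.82 and 3.59. S100a9 still was, at 2.47. In DATK32 over RatIgG, S100a9 fell from 2.10 to 0.54 and was not past it. In DATK32 over MECA367, S100a8 and Ifitm1 were not past it, at -1.42 and -2.03. Under the mitochondrial limit of 5%, Sult1b1, Sult1a1, Ces1d and H2-Eb1 in DATK32 over RatIgG, Thbs4 in MECA367 over RatIgG and Usp46 in DATK32 over MECA367 kept their direction and were not past the rule. Jchain, which joins immunoglobulin A in plasma cells, had log2 ratios of -1.80 to RatIgG and -1.97 to MECA367 in DATK32. They came to -0.28 and 0.05 when 19, 7 and 7 immunoglobulin-rich cells were removed. Jchain is itself on the list by which those cells were chosen. After thinning, more of the named genes kept their direction and were not past the rule. These were Cxcl9, Sult1b1, Sult1a1 and Ces1d in DATK32 over RatIgG, and Hoxb13, Thbs4 and Susd6 in MECA367 over RatIgG. In DATK32 over MECA367 they were Trf, B3gnt7, Hoxb13, Ccl20, Usp46, Ido1 and Ifitm1. Thinned counts limit what can be called for genes of low level. Adh1 in MECA367 was past the rule in all 11 alternatives, among them those that change only the count minimum and cannot move a ratio.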

How the data were processed

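The matrices that the authors deposited for the 3 libraries hold unnormalized counts of UMIs, made with Cell Ranger 6.0.2 on mm10 per the submitters' processing notes; how cells were called is not given in the sources used here. Barcodes were filtered and classed as the report states, and the members and gene lists were chosen with earlier results of these data known. Counts were summed per library and class. Classes were compared with edgeR 4.0.16 (R 4.3.3; quasi-likelihood, TMM scaling, filter on low counts, library as a block because both classes come from the same library, Benjamini-Hochberg adjustment). That step was tested on simulated data. Antibody groups have 1 library each and were compared by CPM with exact Poisson intervals and shares by exact binomial intervals at 95%. These cover counting error only. Log2 ratios between libraries add 1 count.

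Named genes were those that chose the cells, the 4 members of each list with most counts, the 5 highest and 5 lowest ratios between libraries (at least 100 counts, a UMI in 10% of cells) and the 10 highest and lowest fold changes of each fit (at least 50 CPM). Other list members named were chosen after their values were seen. Alternatives were DESeq2 1.42.0, other count minimums, thinning, a mitochondrial limit of 5%, leaving out each library, removal of barcodes with other-lineage RNA and no block. A minimum of 2000 UMIs, removal of immunoglobulin-rich barcodes and leaving out rRNA-overlapping genes were added after seeing the data. Scrublet (scanpy 1.11.5) called 0, 3 and 0 doublets and so did not work. No barcode was removed by it in the main results. An alternative for the cycling shares left out the 434, 274 and 278 barcodes with the highest scores in RatIgG, DATK32 and MECA367. Its values are counted among the 195 below, and as Scrublet did not work they do not test for doublets. Promoters came from RefSeq (GRCm38.p6).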

Additional observations from a re-analysis of the deposited data

Results flagged for a closer look

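Barcodes that met every criterion of the cycling columnar cells except the limit on mitochondrial counts were left out of the comparisons. There were 693 in RatIgG, 613 in DATK32 and 486 in MECA367 with more than 10% mitochondrial counts, against 450, 428 and 320 cycling cells within the limit. Of all columnar barcodes above the limit they made up 23.8%, 27.4% and 24.97%. With no mitochondrial limit the cycling share of columnar barcodes was 21.1%, 24.0% and 24.3%.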

How the results depend on the processing

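Over the alternatives tried, 195 values that answer a comparison stayed within the stated margin and the rest are given here. The cause of a change was not tested. With all kept barcodes as the denominator, the log2 ratio of cycling shares turned to -0.17 for MECA367 over RatIgG and to 0.43 for DATK32 over MECA367. Genes higher in DATK32 than RatIgG numbered 34 thinned and 69 at a mitochondrial limit of 5%, and genes lower 44 thinned, 80 at that limit and 81 with at least 150 counts. For MECA367 over RatIgG, thinning gave 97 higher and 121 lower, and the 5% limit gave 158 lower. For DATK32 over MECA367, thinning gave 58 higher and 57 lower, the 5% limit 117 higher and a minimum of 150 counts 126 lower. Cyp2c55 in MECA367 over RatIgG turned to 3.08 at the 5% limit, and Jchain in DATK32 over MECA367 to 0.0528 without immunoglobulin-rich barcodes. Between cycling and non-cycling cells, DESeq2 called 1651 genes higher and 1493 lower, and thinned counts 1083 and 1219. Against cycling leukocytes, DESeq2 called 1284 higher, and thinned counts 707 higher and 517 lower. Leaving out 1 library gave 1158 to 1786 higher and 1000 to 1441 lower. G1/S genes lower than in leukocytes numbered 7 with DESeq2, 4 thinned and 6 to 14 without 1 library. With no library block the pairing of classes is ignored, and 2210 genes were higher and 2217 lower than in non-cycling cells, and 2112 higher and 1588 lower than in leukocytes, with 15 G1/S genes lower. The G1/S side held 11.7% of MECA367 cells with at least 5 cycle UMIs. Cells with goblet UMIs, in the order RatIgG, DATK32 and MECA367, made up 34.9%, 32.2% and 28.8% at a minimum of 5 UMIs, 22.3%, 18.8% and 15.8% thinned, 28.2%, 38.01% and 32.4% at the 5% limit and 64.5%, 65.3% and 58.7% above 2000 UMIs. Thinned counts limit what can be called for genes of low level.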
